A study of Mus musculus with 3 samples.

Results

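Toll-like receptors and their helpers were followed in single cells from mouse brain and blood. The members are 8 genes: the co-receptor Cd14, the surface receptors Tlr2 and Tlr4, the endosomal receptors Tlr3, Tlr7, Tlr9 and Tlr13, and the adaptor Myd88. They were taken by name, and all 8 were listed in each of the 3 RNA matrices: that of the naive brain with 17129 genes, that of the brain with metastases with 18935, and that of the blood with 16619. The question was in which immune cells of a brain with and without microglial depletion, with and without metastases, this sensing system was expressed.

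Toll-like receptors recognise microbial molecules and also some molecules from damaged cells. Those at the cell surface bind lipids and lipoproteins, and those in endosomes bind nucleic acids. All mammalian members except Tlr3 pass the signal on through Myd88, which leads to NF-kB and to the transcription of cytokines such as Tnf and Il1b. Cd14 is a lipid-anchored protein that loads bacterial lipopolysaccharide onto Tlr4 and also assists Tlr2. In the brain, microglia, the resident macrophages, are the best known bearers of these receptors, while monocytes and neutrophils bear them in blood.

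The regulatory sequence next to the start of the gene is shown for the members that reached a measurable level and that the RefSeq promoter table holds, on build GRCm38.p6. Of the 8 members, 5 were in the table, while Cd14, Tlr4 and Tlr7 are given by name only. Searched on both strands of the 250 bases before the start were GAGGAA, the core of sites of the myeloid factor PU.1, an outline of NF-kB sites (GGG, any 5 bases, CC), an outline of interferon response elements (GAAA, any 2 bases, GAAA) and TATAAA, the TATA box. Capitals mark a match.
Tlr2 site, chr3:83841761-83841790, minus strand: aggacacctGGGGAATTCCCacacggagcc
Tlr13 promoter, chrX:106143025-106143274, plus strand: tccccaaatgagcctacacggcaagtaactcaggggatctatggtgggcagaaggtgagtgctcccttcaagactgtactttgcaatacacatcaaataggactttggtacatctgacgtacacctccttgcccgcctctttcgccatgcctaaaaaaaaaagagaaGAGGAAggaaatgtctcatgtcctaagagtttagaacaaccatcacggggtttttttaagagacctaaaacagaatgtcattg
Myd88 promoter, chr9:119340019-119340268, minus strand: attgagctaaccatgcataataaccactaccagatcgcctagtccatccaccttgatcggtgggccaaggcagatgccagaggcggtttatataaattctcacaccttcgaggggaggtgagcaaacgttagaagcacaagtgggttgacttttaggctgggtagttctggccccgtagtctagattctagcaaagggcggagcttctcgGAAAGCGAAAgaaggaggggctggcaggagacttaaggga
The 3 sequences carry different letters. The Tlr2 site holds overlapping matches of the NF-kB outline, 173 and 172 bases before the start, and only the site is shown because 216 bases of the window lie within the annotated span of the gene. Tlr13 holds GAGGAA 83 bases before its start. Myd88 holds the interferon element outline 40 bases before its start and, in lower case, TATAAA 160 bases before it. Among 32851 promoters of 250 bases, the NF-kB outline matched in 45.8%, GAGGAA in 23.3%, TATAAA in 12.4% and the interferon element outline in 2.98%. A match describes the letters and does not show a bound site. The genes themselves lie at chromosome 3, 83836272 to 83841824 for Tlr2, at chromosome X, 106143275 to 106160493 for Tlr13, and at chromosome 9, 119335934 to 119340018 for Myd88.

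Cells came from female C57Bl/6 mice of 2 to 3 months, all of which carried Cx3cr1CreERT, a tamoxifen-switched Cre recombinase under the promoter of Cx3cr1, a gene of microglia and monocytes. In the depleted arm the mice had ROSA-iDTR as well, which gives cells with active Cre the receptor for diphtheria toxin, and both arms received tamoxifen, a rest of 1 month, and diphtheria toxin. Naive brains came from mice without metastases, whereas metastases were started by injection of E0771 mouse mammary tumour cells into the carotid artery about 2 weeks earlier, and each sample was 1 brain hemisphere or peripheral blood. Brain tissue was digested and its immune cells enriched on Percoll, red cells of the blood were lysed, and 8 hashed samples, stained with 35 antibodies, were pooled into 1 library. The submitters state that microglia remain in the depleted samples.

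The deposited annotation maps cells to 4 hashed samples, 1 for each arm of the naive brain (785 cells labelled control and 1868 labelled depleted) and of the blood of mice with metastases (1371 and 1553). The 5933 cells of the brain with metastases are 1 pooled sample. Median raw UMI counts (captured RNA molecules) per cell were 8621 (control) and 10119.5 (depleted) for the naive brain and 4571 and 5885 for the blood. Of the barcodes of the naive brain 29.1% were also in another matrix, as were 17.1% of those of the brain with metastases and 28.5% of those of the blood. The 339 barcodes common to naive brain and blood had equal raw RNA and antibody totals in both. A cluster named Krt8+ tumour-like was also present in the naive brain (111 cells, 4.18%) and the blood (180 cells, 6.16%). Of its barcodes 72.1% and 83.9% were shared with another matrix. Which sample these cells came from was not tested. Arms are named by their labels, because the labels and the cells disagree. In the naive brain microglia-like cells were 36.7% (95% interval 34.5 to 39.0) of cells labelled depleted and 17.1% (14.5 to 19.9) of those labelled control, and Cx3cr1 in them was 10.0 against 1.72 CP10k. With 1 sample per arm and tissue there is no replicate, no spread between mice and no test, so every difference below is a description. Intervals are exact 95% intervals that cover counting error only.

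Levels are given in CP10k, corrected UMIs of a gene per 10000 corrected UMIs of all genes, summed over the cells of a class. Because each cell is read at the 3' end, levels are compared for 1 gene between classes and not between genes. Cells are classed by the authors' clusters in the naive brain and the blood and by clusters made here in the brain with metastases, each named from fixed marker lists. A member counts as measured in a class at 0.5 CP10k or more. Cd14 reached that level in 6 of the 9 naive brain clusters, 18 of the 30 metastasis brain clusters and 4 of the 8 blood clusters. For Tlr2 these counts were 5, 13 and 4, for Tlr7 they were 2, 6 and 3, for Tlr13 they were 4, 9 and 4, and for Myd88 they were 3, 11 and 4. Tlr3, Tlr4 and Tlr9 did not reach it in any cluster.

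Cd14 was a gene of all myeloid classes of the naive brain. In classical monocyte-like cells it stood at 11.2 CP10k in the sample labelled control and 7.61 CP10k in the sample labelled depleted. Microglia-like cells held 7.05 and 4.83 CP10k, and neutrophil-like cells 7.55 and 3.31 CP10k. Nonclassical monocyte-like cells held 4.66 and 2.91 CP10k, the last from only 18 cells. The range of the 2 samples in neutrophil-like cells overlapped those of microglia-like and nonclassical monocyte-like cells, while classical monocyte-like cells lay above all other classes in both samples. In that class the 7 classical monocyte markers summed to 38.9 and 30.2 CP10k, control first. Its 10 microglia markers summed to 41.5 and 44.6 CP10k and its 8 T cell markers to 6.75 and 8.23 CP10k. Of its barcodes 62.2% were shared with another matrix. The part of these in its Cd14 level was not tested. Vascular-like cells (1.85 and 1.65 CP10k) and endothelial-like cells (1.29 and 0.566 CP10k) were lower, and T cell-like cells held 0.147 and 0.324 CP10k. Microglia-like cells, the most numerous class, carried 47.1% of all Cd14 UMIs of the naive brain.

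Tlr2, the receptor for bacterial lipoproteins, had a different order. It was highest in microglia-like cells, at 3.01 CP10k in the sample labelled control and 3.07 CP10k in the sample labelled depleted, above every other class in both. Nonclassical monocyte-like cells held 2.16 and 2.54 CP10k and classical monocyte-like cells 2.58 and 1.93 CP10k, which overlap. In neutrophil-like cells Tlr2 stood at 1.90 and 1.03 CP10k, a range that overlaps vascular-like cells (0.869 and 1.17 CP10k). Tlr4, the receptor for lipopolysaccharide, was low throughout. Its level in microglia-like cells was 0.286 and 0.274 CP10k, with at least 1 UMI in 23.1% and 23.6% of cells, and in classical monocyte-like cells 0.0951 and 0.108 CP10k.

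Among the endosomal receptors, Tlr7 and Tlr13, which bind single-stranded RNA and bacterial ribosomal RNA, were measured in myeloid cells. Tlr7 was 0.813 and 0.874 CP10k in microglia-like cells and 0.833 and 0.804 CP10k in nonclassical monocyte-like cells, control first, and these ranges overlap. Classical monocyte-like cells had less, with 0.458 and 0.347 CP10k, and neutrophil-like cells had 0.0447 and 0.247 CP10k. Tlr13 was 0.840 and 1.24 CP10k in nonclassical monocyte-like cells, 0.798 and 0.707 in microglia-like cells, 0.717 and 0.449 in classical monocyte-like cells and 0.603 and 0.551 in neutrophil-like cells. The range of classical monocyte-like cells overlapped those of microglia-like and of neutrophil-like cells. Neutrophil-like values lay below the microglia-like ones, but they come from only 49 and 56 cells, so this order is not settled. Tlr3, the receptor for double-stranded RNA, was highest in microglia-like cells, at 0.414 and 0.395 CP10k, with at least 1 UMI in 28.4% and 30.5% of them. Tlr9, which binds unmethylated CpG DNA, was found in 1.66% of all cells of the naive brain and stood at 0.0452 and 0.0306 CP10k in microglia-like cells. The adaptor Myd88 was 1.19 and 0.762 CP10k in classical monocyte-like cells, 0.849 and 0.989 in neutrophil-like cells, 0.578 and 0.804 in nonclassical monocyte-like cells and 0.497 and 0.443 in microglia-like cells. The range of classical monocyte-like cells overlaps those of neutrophil-like and nonclassical monocyte-like cells, and the microglia-like values lay below all of them. Neutrophil-like and nonclassical monocyte-like values nearly meet, at 0.849 and 0.804, the latter from only 18 cells, so the order of these classes is not settled.

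**Figure D1:**
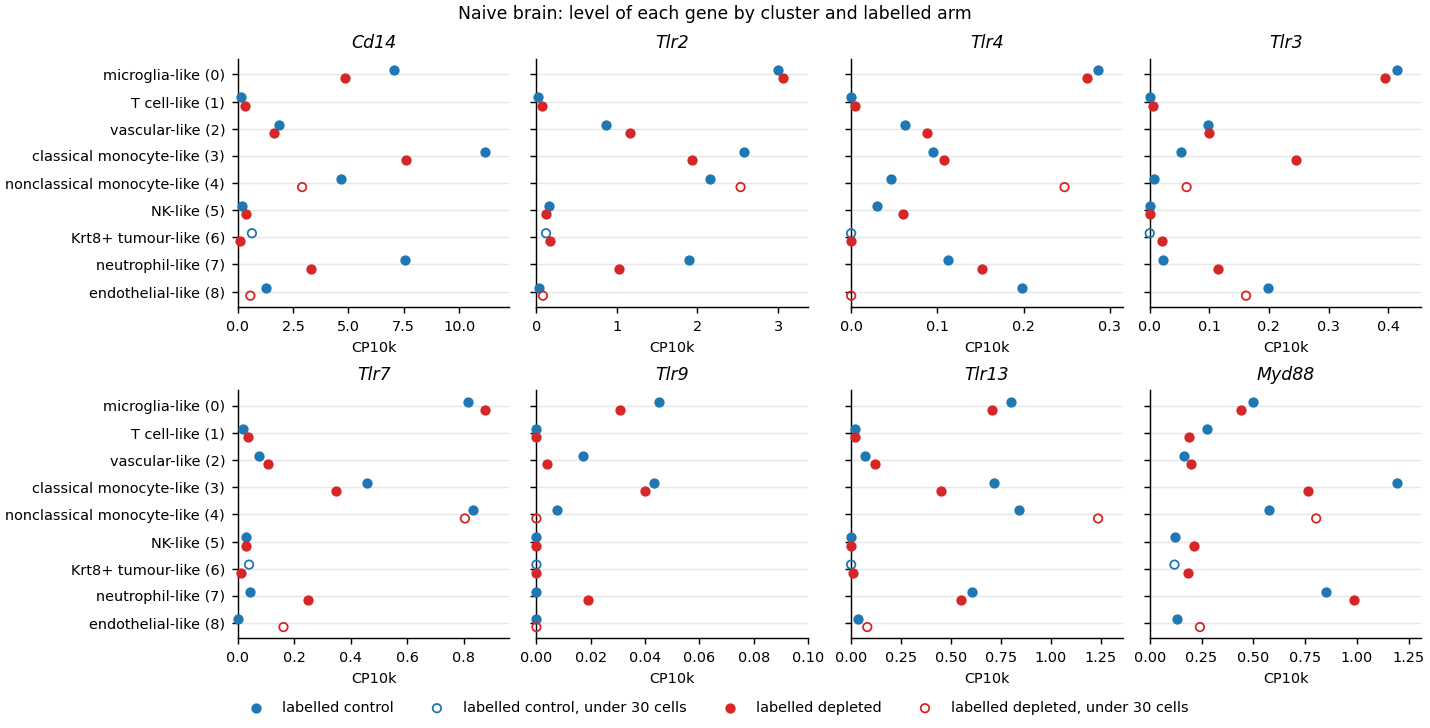
Level of each of the 8 members (CP10k, 1 panel per gene with its own axis) in the clusters of the naive brain. Blue points are the sample labelled control and red points the sample labelled depleted, hollow where a sample has under 30 cells. Cd14 is above 2.9 CP10k in every myeloid class, Tlr2 is highest in microglia-like cells, and Tlr3, Tlr4 and Tlr9 stay under 0.5 CP10k.

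Cells of low depth bear on the low end of these levels. Every one of the 254 naive brain cells under 2000 raw UMIs had at least 1 corrected UMI of Cd14 and of Tlr2, exactly 1 in 85.0% of them for Cd14 and in 88.6% for Tlr2. Of cells with 3000 or more raw UMIs, 12.8% had exactly 1 for Cd14 and 12.7% for Tlr2. The 2 members are among 1286 of 17129 genes (7.51%) with at least 1 UMI in all of those shallow cells, whereas Tlr7 had one in 8 of them. In the blood 317 of 16619 genes (1.91%) did this in the 330 shallow cells and none of the members. Shares of cells with at least 1 UMI of Cd14 or Tlr2 in the naive brain (62.6% and 50.4% of all cells) therefore count these cells, and shares of cells with at least 2 UMIs are given from here on for those genes in the naive brain. Without cells under 3000 raw UMIs, vascular-like cells held 1.51 and 1.01 CP10k of Cd14 and under 0.5 CP10k of Tlr2, control first.

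**Figure D2:**
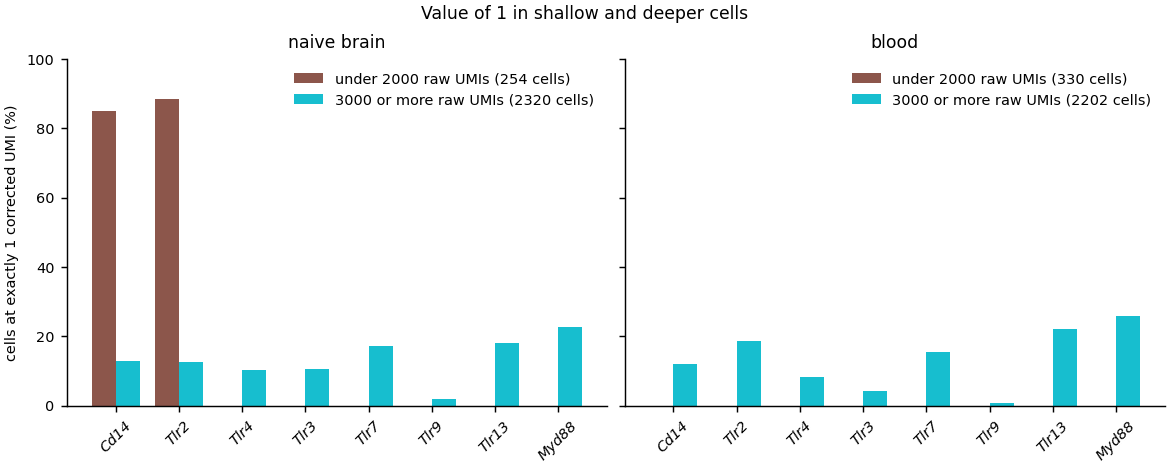
Percent of cells with exactly 1 corrected UMI of each member, for cells under 2000 raw UMIs and for cells with 3000 or more, in naive brain and blood. Cd14 and Tlr2 reach 85.0% and 88.6% in the shallow cells of the naive brain, and stand at 12.8% and 12.7% in the deeper ones.

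At 2 or more UMIs, Cd14 was seen in 76.1% (68.0 to 83.1) of microglia-like cells labelled control and 72.0% (68.5 to 75.3) of those labelled depleted, and in 83.8% and 67.4% of classical monocyte-like cells. The median microglia-like cell held 5 and 3 UMIs of Cd14, and the median classical monocyte-like cell 10 and 4. Tlr2 was seen at this depth in 54.5% and 60.5% of microglia-like cells. T cell-like cells, which should lack Cd14, had at least 2 UMIs of it in 0% (0 to 6.06) and 5.23% of cells. Cells with Cd14 more often also had Tlr2. In microglia-like cells labelled control 47.0% had at least 2 UMIs of both, against 41.5% from the product of the single shares, and in those labelled depleted 46.4% against 43.6%. In classical monocyte-like cells these were 55.0% against 49.1% and 39.5% against 30.2%. The depth of a cell can move both genes together, and beyond the authors' correction it was not removed from these shares.

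Between the arms of the naive brain, Cd14 was lower in the sample labelled depleted in each myeloid class with at least 30 cells a side. The log2 ratio of depleted over control, with a pseudocount of 0.1 CP10k, was -0.54 (counting interval without the pseudocount -0.65 to -0.44) in microglia-like cells and -0.55 (-0.66 to -0.44) in classical monocyte-like cells. In neutrophil-like cells, 49 and 56 in number, it was -1.17 (-1.46 to -0.92), the only member ratio past 2 fold in the naive brain. Among all measured genes 1.62% were at least 2-fold lower in that class and 6.02% at least 2-fold higher. For microglia-like cells these shares were 0.977% and 0.284%, for classical monocyte-like cells 1.35% and 0.451%, and for vascular-like cells 1.64% and 0.661%, with no member past 2 fold in any of the 3.

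Tlr2 did not share that pattern in microglia-like cells, where its ratio was 0.03 (-0.13 to 0.19). Tlr7 (0.09) and Tlr13 (-0.16) were also near 0 there, with counting intervals that hold 0. In classical monocyte-like cells all 4 measured members were lower in the sample labelled depleted: beside Cd14, Tlr2 at -0.40 (-0.65 to -0.19), Tlr13 at -0.57 (-1.14 to -0.21; -1.46, past 2 fold, without shared barcodes) and Myd88 at -0.58 (-0.999 to -0.29). In neutrophil-like cells Tlr2 was at -0.83 (-1.41 to -0.38), while Tlr13 (-0.11) and Myd88 (0.20) had intervals that hold 0. Vascular-like cells had Cd14 at -0.15 and Tlr2 at 0.38 (0.14 to 0.71), but their median raw UMIs were 4575 in the control and 1888 in the depleted label. Without cells under 3000 raw UMIs Cd14 was at -0.53 there, and Tlr2 was not measured in either sample. Of the 14 measured ratios in these 4 classes, 10 were below 0, and 17 of 32 with no minimum level. The share of all genes below 0 was not counted. The median log2 ratio over all genes was -0.05 in both microglia-like and classical monocyte-like cells. It was 0.11 in neutrophil-like and 0.004 in vascular-like cells.

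Several measured properties moved with those ratios. The median hashtag count per cell was 63 and 1132 in classical monocyte-like cells, 113 and 832.5 in neutrophil-like cells and 174 and 340 in microglia-like cells, control first. Barcodes shared with another matrix were 64.0% and 61.0% of classical monocyte-like cells, 63.3% and 67.9% of neutrophil-like cells and 35.8% and 28.6% of microglia-like cells. In neutrophil-like cells the 8 neutrophil markers summed to 2188 and 1452 CP10k and the 10 microglia markers to 10.6 and 22.6 CP10k. In classical monocyte-like cells the neutrophil markers summed to 65.5 and 24.3 CP10k and the microglia markers to 41.5 and 44.6 CP10k. The part of these in the ratios was not tested, but the direction of Cd14 was the same without the shared barcodes for microglia-like and classical monocyte-like cells, with log2 ratios of -0.53 and -0.88. Without the 25% of cells with the lowest hashtag counts the ratio in neutrophil-like cells was -0.99, under 2 fold. With classes from the authors' surface gates, the ratio in classical monocyte-like cells was -1.21.

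**Figure D3:**
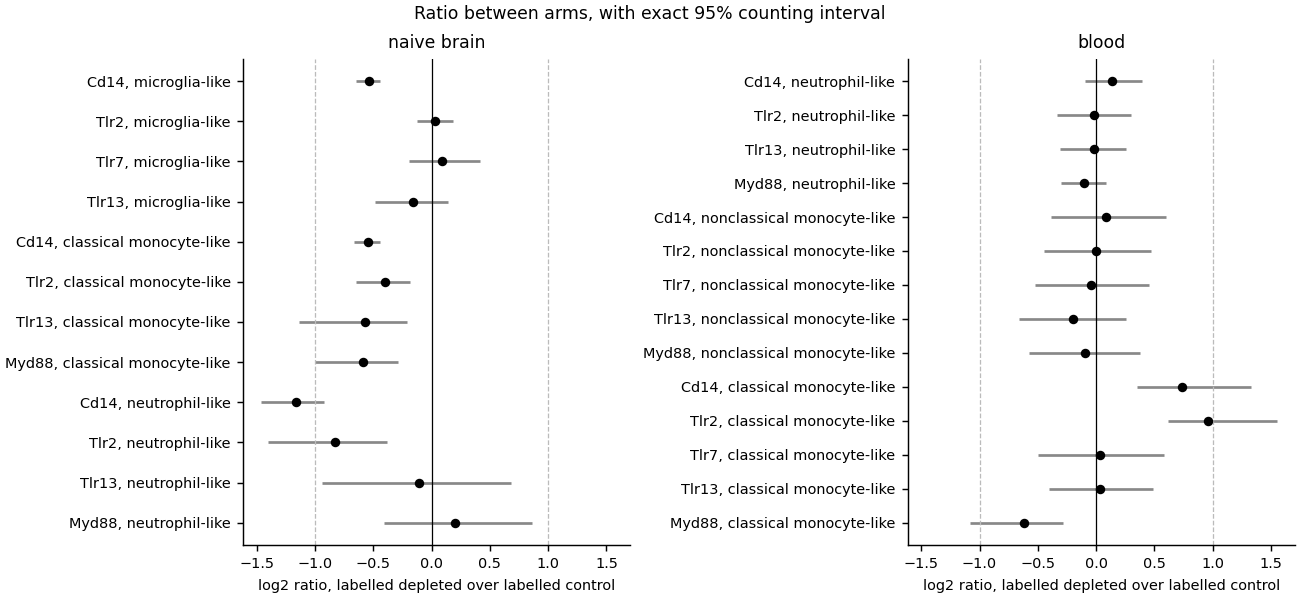
Log2 ratio of the sample labelled depleted over the sample labelled control for each measured member, in 3 classes of the naive brain and 3 of the blood. Points are the ratios with a pseudocount of 0.1 CP10k, bars the exact 95% counting intervals, and dashed lines mark 2 fold. Cd14 lies below 0 in the 3 brain classes and at 0.73 in classical monocyte-like cells of the blood.

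Other genes of the pathway were read from lists. Genes induced by Toll-like receptor signalling, such as cytokines and chemokines, were all lower in the sample labelled depleted in microglia-like cells: 13 of 13 measured, 3 of them past 2 fold, with a median log2 ratio of -0.47 beside -0.05 over all 3172 measured genes. Induced genes past 2 fold were Cxcl1, a neutrophil attractant (0.165 against 0.535 CP10k, depleted against control), Acod1, which makes itaconate (0.275 against 0.708), and Il1b, the cytokine interleukin-1 beta (6.20 against 12.98). The sensor of damaged cells Clec4e was also past 2 fold (0.300 against 0.731). All 7 measured brakes of the pathway, such as the NF-kB inhibitor Nfkbia, were below 0, with a median of -0.23, as were 9 of 10 signalling genes, with -0.22. Receptor partners such as Ly96 and Unc93b1 were split, 4 above and 4 below 0.

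Classical monocyte-like cells of the naive brain had the same direction in the induced list, with 15 of 15 measured genes below 0, 3 past 2 fold and a median of -0.46 beside -0.05 over all genes. Past 2 fold were Il6 (0.387 against 1.35 CP10k, depleted against control), Acod1 (1.15 against 2.62), the sensor Clec4e (2.83 against 6.26) and the chemokine Cxcl2 (21.6 against 44.1). Of the measured brakes 7 of 9 were below 0, with a median of -0.31. In neutrophil-like cells 9 of 12 induced genes were below 0, with a median of -0.50 beside 0.11 over all genes. The receptor partners went the other way, with 5 of 5 above 0 and a median of 0.72, and Ly86 (2.72 against 1.09 CP10k) and Lgmn (3.73 against 1.79) were past 2 fold, both named after their values were seen. In vascular-like cells 7 of 11 induced genes and 6 of 6 brakes were above 0. In neutrophil-like cells Acod1 (1.27 against 5.36), Cxcl2 (14.5 against 42.1) and the inflammasome sensor Nlrp3 (0.989 against 2.75) were lower, and Socs1, a brake on cytokine signalling, was at 0.570 CP10k against a listed 0. A list of immediate early genes, which are known to rise while tissue is dissociated, was added after the members' levels were seen. All 15 measured were below 0 in microglia-like cells, with a median of -0.40, but 7 were above and 8 below 0 in classical monocyte-like cells, with a median of -0.04. How far tissue handling bears on the members was not tested.

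In the blood of mice with metastases, the order of classes was different. Cd14 in neutrophil-like cells was 1.26 CP10k in the sample labelled control and 1.40 CP10k in the sample labelled depleted. Nonclassical monocyte-like cells held 0.900 and 0.960 CP10k, and classical monocyte-like cells 0.562 and 0.999 CP10k, a range that overlaps the nonclassical one. Tlr2 stood at 1.06 CP10k in both samples of nonclassical monocyte-like cells, at 0.583 and 1.23 in classical monocyte-like cells and at 0.790 and 0.778 in neutrophil-like cells. Myd88 was highest in neutrophil-like cells, at 2.10 and 1.95 CP10k, with at least 2 UMIs in 26.4% and 27.5% of them. It stood at 1.34 and 0.833 CP10k in classical monocyte-like cells and at 1.00 and 0.929 in nonclassical monocyte-like cells.

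Tlr7 in the blood was higher in monocyte-like than in neutrophil-like cells. It stood at 0.941 and 0.908 CP10k in nonclassical and 0.572 and 0.587 CP10k in classical monocyte-like cells. In neutrophil-like cells it was 0.0535 and 0.0415 CP10k. It was measured in 3 of the 8 blood clusters, so not in monocyte-like clusters only. Tlr13 was alike in the 3 classes, between 0.827 and 1.08 CP10k over the 6 values. Tlr4 was higher in neutrophil-like cells (0.350 and 0.405 CP10k) than in its other blood classes, without reaching 0.5 CP10k. B cell-like cells, in which Tlr7 and Tlr9 are known to act, held 0.184 and 0.156 CP10k of Tlr7 and 0.0282 and 0.0389 CP10k of Tlr9. Tlr9 was seen in 0.650% of all blood cells. Another blood cluster carried both endothelial and microglial markers and stayed without a single name. It held 9.03 and 8.50 CP10k of Cd14 and 3.37 and 3.32 CP10k of Tlr2, and 82.7% of its barcodes were also listed for the brain.

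Between the arms of the blood, no member was past 2 fold in neutrophil-like, nonclassical or classical monocyte-like cells. Background shares of genes at least 2-fold higher were 0.0864%, 0.99% and 0.42%, and of genes at least 2-fold lower 0.561%, 1.54% and 0.691%. The largest ratios were in classical monocyte-like cells, 160 labelled control and 195 labelled depleted. Cd14 was higher in the sample labelled depleted, at a log2 ratio of 0.73 (0.35 to 1.33), and had at least 2 UMIs in 9.74% against 3.12% of cells. Tlr2 was higher as well, at 0.96 (0.61 to 1.55), with at least 2 UMIs in 16.9% against 6.88% of cells. Myd88 was lower, at -0.62 (-1.08 to -0.29), with at least 1 UMI in 36.4% against 56.2% of cells. These directions held when each cell was thinned to 2000 UMIs, with shares of 12.1% against 6.03% for Cd14, 20.2% against 10.3% for Tlr2 and 15.04% against 23.7% for Myd88, depleted against control.

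In these classical monocyte-like cells of the blood the 10 microglia markers summed to 4.44 and 2.40 CP10k, depleted against control, with Sall1 at 0 in the latter, and the classical monocyte markers to 135 and 102 CP10k. Shared barcodes were 5.13% and 11.3% of cells. Without them Cd14 was at 0.794 against 0.227 CP10k, a log2 ratio of 1.45, and Tlr2 at 1.11. Cd14 in nonclassical monocyte-like cells also passed 2 fold without shared barcodes, at 1.24, so that 3 blood ratios did. The share of all genes that did so was not counted. With the cell names of an earlier annotation in the deposited table the ratio for Cd14 was 0.18 and for Tlr2 0.97. Among the pathway lists no common direction appeared: 7 of 11 signalling genes were below 0, 4 of 6 brakes above it, and the 4 measured induced genes were evenly split. The immediate early list had 9 of 13 above 0, with a median of 0.20 beside -0.06 over all genes and 2 past 2 fold. Blood neutrophil-like cells had 7 of 8 induced genes above 0, with a median of 0.42 beside 0.03 over all genes, and all 13 measured immediate early genes above 0, while Cd14 there was at 0.14 (-0.09 to 0.39). In classical monocyte-like cells Fpr2, a receptor for formyl peptides, was higher (1.499 against 0.413 CP10k), and the interferon-linked genes Ddx58 (0.193 against 0.604) and Irf7 (0.684 against 1.59) were lower. In nonclassical monocyte-like cells Fpr1 (log2 ratio 1.36) and Fpr2 (1.25) were higher and Irf7 (-1.12) and Ccl3 (-1.04) lower.

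Across tissues the same gene could be set side by side in 3 classes, though the matrices were normalized separately. Naive brains and blood also came from different mice, and tissue, preparation and metastases cannot be told apart in this comparison. With the control label first, Cd14 in classical monocyte-like cells was 11.2 and 7.61 CP10k for the naive brain and 0.562 and 0.999 CP10k for the blood, and 16.1 CP10k for the brain with metastases. The lowest brain value was 7.01 times the highest blood value with the pseudocount. In nonclassical monocyte-like cells the 5 values were 4.66, 2.91, 5.11, 0.900 and 0.960 CP10k, and in neutrophil-like cells 7.55, 3.31, 14.1, 1.26 and 1.40 CP10k. Brain and blood did not overlap in any of the 3 classes, with lowest brain over highest blood at 2.84 and 2.27 in the last named pair. Genes with both naive samples at least 2 fold above both blood samples made up 8.58% of genes in classical monocyte-like, 1.35% in nonclassical monocyte-like and 6.5% in neutrophil-like cells. Those with both blood samples at least 2 fold above both naive samples made up 3.04%, 0.324% and 1.67%.

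Pooled over arms, Cd14 in the naive brain stood 10.1-fold above the blood in classical monocyte-like cells, 4.35-fold in nonclassical monocyte-like cells and 3.76-fold in neutrophil-like cells. Tlr2 was higher in both naive brain samples than in both blood samples of each class, at pooled log2 ratios of 1.15, 0.98 and 0.79. Its lowest brain over highest blood value was 1.53, 1.94 and 1.27, under 2 fold in each class. The naive nonclassical sample labelled depleted has only 18 cells. The pooled ratios of Tlr13 were -0.52, -0.11 and -0.68 and those of Myd88 -0.17, -0.57 and -1.06. Tlr13 in nonclassical monocyte-like cells and Myd88 in classical monocyte-like cells overlapped between naive brain and blood, and in the other classes both lay lower in the naive brain. The share of all genes separated at any margin was not counted, so these orders of Tlr2, Tlr13 and Myd88 have no background beside them. Myd88 in neutrophil-like cells was the only member with the lower brain level past 2 fold, at 0.849 and 0.989 CP10k in naive brain and 2.10 and 1.95 CP10k in blood. Of 14 measured member ratios 4 were at least 2-fold higher in the naive brain and 1 at least 2-fold lower. The background was 11.2% higher and 5.81% lower in classical monocyte-like cells, 2.97% and 1.9% in nonclassical monocyte-like cells, and 11.3% and 4.31% in neutrophil-like cells. The brain with metastases against the same blood gave log2 ratios for Cd14 of 4.17, 2.31 and 3.32 and for Tlr2 of 1.45, 1.21 and 1.29, so that 6 of 14 ratios were at least 2-fold higher and none lower, beside 12.6%, 3.17% and 21.5% of genes higher and 9.93%, 2% and 4% lower. Both comparisons share the blood cells. Microglia markers moved with this contrast. Their sum, control label first, was 41.5 and 44.6 CP10k in classical monocyte-like cells of the naive brain against 2.40 and 4.44 in the blood, 9.27 and 16.1 against 3.68 and 7.21 in nonclassical monocyte-like cells, and 10.6 and 22.6 against 3.01 and 3.36 in neutrophil-like cells. The classical monocyte markers of classical monocyte-like cells went the other way. They summed to 38.9 and 30.2 CP10k in the naive brain and 102 and 135 CP10k in the blood, control first. The fold for this class thus sets clusters of unlike marker content side by side. Shared barcodes were 62.2% of the brain and 7.89% of the blood classical monocyte-like cells. Without them the log2 ratios of Cd14 were 3.67, 2.73 and 2.22 in the same 3 classes, and the part of the markers was not tested.

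**Figure D4:**
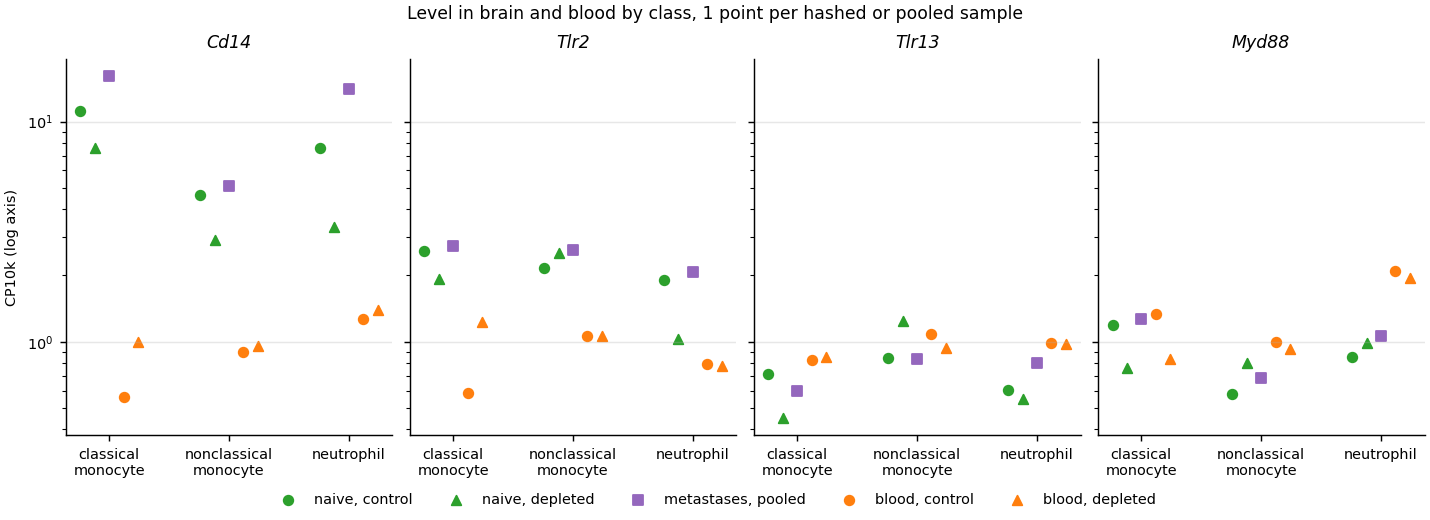
Level of Cd14, Tlr2, Tlr13 and Myd88 (CP10k, log axis) in classical monocyte-like, nonclassical monocyte-like and neutrophil-like cells of the naive brain (control and depleted label), the brain with metastases (pooled) and the blood (control and depleted label). Each point is 1 sample. Cd14 of the brain samples lies between 2.91 and 16.1 CP10k and that of the blood between 0.562 and 1.40 CP10k.

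Induced genes and immediate early genes were also higher in the brain than in the blood. In classical monocyte-like cells all 15 measured induced genes were above 0, 14 past 2 fold, with a median log2 ratio of 3.80 beside -0.14 over all genes. Examples are the chemokines Cxcl2 (30.5 against 0.456 CP10k, naive brain against blood), Ccl4 (19.0 against 0.307) and Ccl2 (9.65 against 0.125). Of the brakes 8 of 9 were above 0, with a median of 2.24. Immediate early genes had 15 of 15 above 0, 14 past 2 fold and a median of 2.39. In nonclassical monocyte-like cells the induced list had 12 of 12 above 0 with a median of 1.74, and in neutrophil-like cells 11 of 12 with a median of 1.496. The clusters also differ in their leading genes. Brain neutrophil-like cells were led by Ngp, Camp and Ltf, genes of immature granules, and blood neutrophil-like cells by S100a9, S100a8 and Retnlg. Brain classical monocyte-like cells were led by Cxcl9, Fabp5 and Ms4a4c, and those of the blood by F13a1, Fn1 and Chil3.

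In the brain with metastases, where arms are pooled, Cd14 ranged widely over 30 clusters. It was highest in classical monocyte-like cluster 3, at 21.6 CP10k over 141 cells, with at least 2 UMIs in 93.6% of cells, a median of 26 UMIs and a highest cell of 105. Neutrophil-like cells held 14.1 CP10k and a second classical monocyte-like cluster 13.6 CP10k. Macrophage-like cells, a name that no cluster of the other matrices received, held 10.8 CP10k. Microglia-like clusters held 7.86 and 7.87 CP10k, and nonclassical monocyte-like cells 5.11 CP10k. Tlr2 kept its peak in microglia-like cells, at 4.77 and 4.43 CP10k, against 3.35 and 2.46 in the classical monocyte-like clusters and 2.22 in macrophage-like cells. In the 3 clusters of Krt8+ tumour-like cells Cd14 lay between 0.0102 and 0.0231 CP10k, and 0.592% of the cells of one of them had 2 or more UMIs.

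Outside these classes single members stood out. Tlr7 reached 1.102 CP10k, its highest level in the 3 matrices, in a cluster of only 27 cells led by Ly6d, Cox6a2 and Ccr9, with at least 1 UMI in 74.1% of cells and a Tlr2 level of 0.248 CP10k. That cluster stayed unnamed, since it had under 30 cells and none of its 10 leading genes was in the T cell list, of which it met 3 markers. It also met 2 markers each of the dendritic and classical monocyte lists, so the lists do not settle what these cells are. Tlr3 was 0.398 CP10k in an unnamed cluster led by Ttr, a gene of the choroid plexus, beside 0.393 and 0.318 CP10k in the microglia-like clusters and 0.273 CP10k in endothelial-like cluster 12. Cd14 in that endothelial-like cluster was 3.35 CP10k, with at least 2 UMIs in 48.9% of cells, whereas it was 0.764 CP10k (15.2% of cells) in endothelial-like cluster 24. The microglia markers summed to 12.3 CP10k in cluster 12 and 19.1 CP10k in cluster 24, and the macrophage markers to 20.2 and 31.3 CP10k in the same order. The classical monocyte markers summed to 11.5 and 9.59 CP10k, and the part of these cells in the level was not tested. Dendritic-like cells held 2.68 CP10k of Cd14 and 0.897 CP10k of Myd88. In B cell-like cells Cd14 was 2.98 CP10k, but there 57.1% of barcodes were shared and the macrophage markers summed to 123 CP10k, and their part in the level was not tested.

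**Figure D5:**
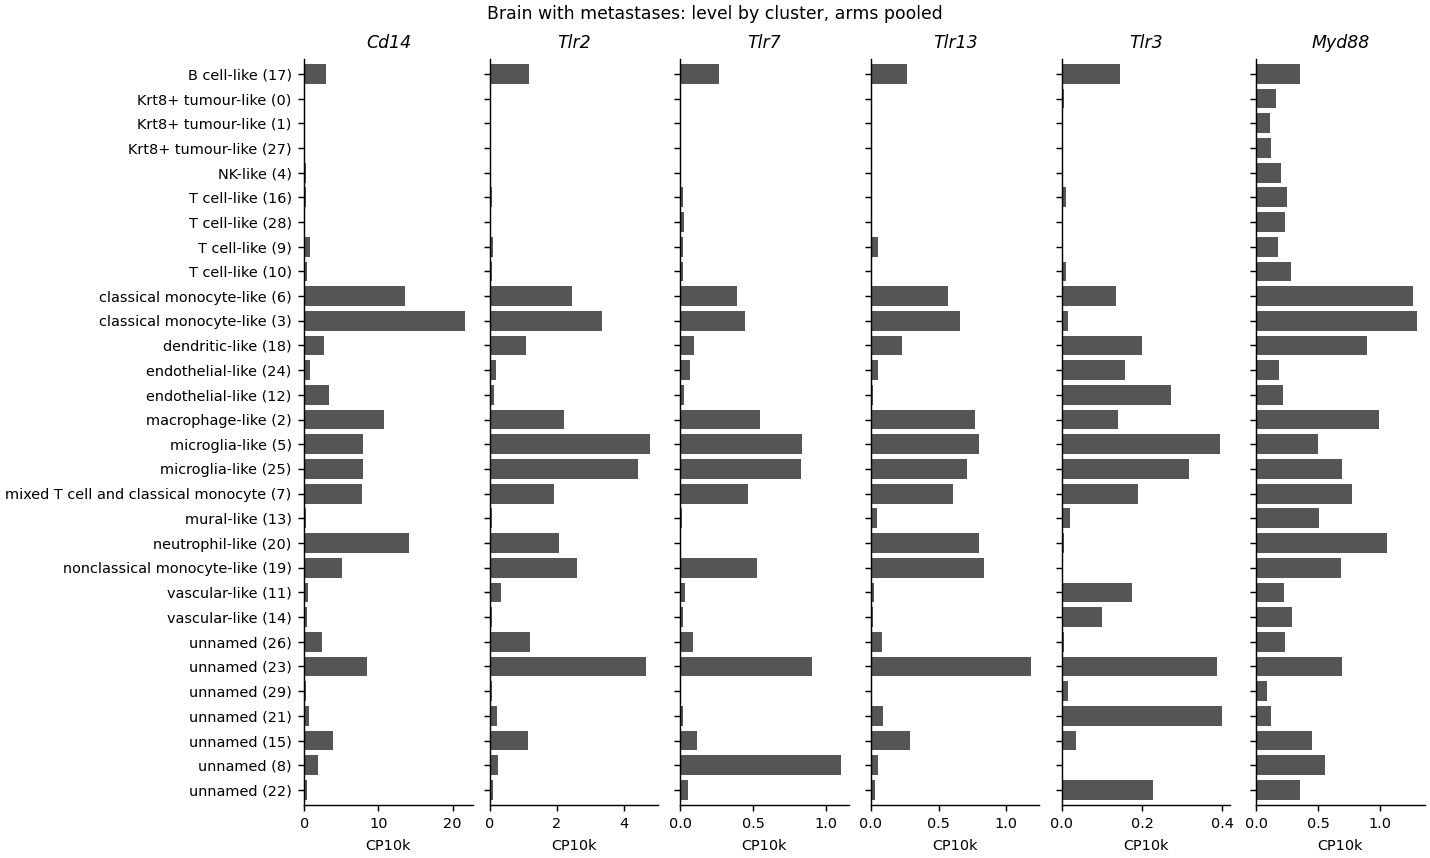
Level of Cd14, Tlr2, Tlr7, Tlr13, Tlr3 and Myd88 (CP10k, 1 panel per gene with its own axis) in the 30 clusters of the brain with metastases, arms pooled. Each bar is 1 cluster. Cd14 is highest in a classical monocyte-like cluster (21.6), Tlr2 in a microglia-like cluster (4.77), and Tlr7 in an unnamed cluster of 27 cells (1.102).

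Set against the naive brain, the brain with metastases had more Cd14 in each class compared. In microglia-like cells it was 7.87 against 5.19 CP10k (log2 ratio 0.59, 0.54 to 0.66), in classical monocyte-like cells 16.1 against 9.02 CP10k (0.83), and in nonclassical monocyte-like cells 5.11 against 4.46 CP10k (0.19). Neutrophil-like cells had the largest ratio, 14.1 against 5.26 CP10k (1.41, 1.28 to 1.57), and were the 1 case past 2 fold among 18 measured member ratios. The naive value pools unlike samples, 7.55 CP10k labelled control and 3.31 CP10k labelled depleted, and 14.1 is less than 2 times the first of them. For microglia-like cells the naive samples were 7.05 and 4.83 CP10k, so that the value with metastases lay close to the one labelled control. At least 2-fold higher were 7.2% of all genes in neutrophil-like cells, 0.399% in microglia-like cells, 1.71% in classical and 0.44% in nonclassical monocyte-like cells. At least 2-fold lower were 6.06%, 1.16%, 3.09% and 0.643% in the same order, with no member among them. Tlr2 was 4.69 against 3.06 CP10k in microglia-like cells (0.60, 0.54 to 0.69), a ratio close to that of Cd14, and differed less in classical (0.31) and nonclassical (0.23) monocyte-like cells. Tlr7 was 0.833 against 0.864 CP10k and Tlr13 0.777 against 0.721 CP10k in microglia-like cells, with intervals that hold 0. In nonclassical monocyte-like cells Tlr7 was lower with metastases, at 0.529 against 0.829 CP10k (-0.56, -1.05 to -0.25). Myd88 was higher in classical monocyte-like cells, at 1.27 against 0.933 CP10k (0.41).

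In the same comparison all 11 measured induced genes were higher in microglia-like cells, with a median log2 ratio of 0.70 beside 0.02 over all genes. Tnf was past 2 fold (16.4 against 8.01 CP10k), as was the sensor Nlrp3 (3.25 against 1.55). Classical monocyte-like cells had 12 of 15 above 0, with a median of 0.33 beside 0.05 over all genes. Past 2 fold were 5, among them Sod2 (7.66 against 3.00), Acod1 (4.07 against 1.73), Cd40 (1.83 against 0.755) and Il1b (71.1 against 33.5). Neutrophil-like cells had 14 of 14 above 0, with a median of 0.85 beside 0.20 over all genes and examples in Cxcl1 (0.936 against 0.0924) and Cxcl2 (99.7 against 27.2). Nonclassical monocyte-like cells differed, with 5 of 13 above 0 and a median of -0.25 beside -0.02 over all genes. The immediate early list had 6 above and 9 below 0 in microglia-like cells, with a median of -0.07. These values cross matrices that were normalized separately, and those with metastases mix both arms. The neutrophil-like clusters also had different leading genes, with G0s2, Stfa2l1 and Retnlg in the brain with metastases. A cluster of 102 cells there was led by Camp, Ngp and Ltf, as the naive neutrophil-like cells were, and met 7 neutrophil markers. It stayed unnamed and out of this comparison, because a basophil marker and no neutrophil marker was among its 10 leading genes, and its Cd14 level was 3.85 CP10k.

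The genes most like each member were sought over sums by cluster and arm, 15 sums and 6569 genes in the naive brain and 14 sums and 5879 genes in the blood. All sums of a matrix share 1 library and 1 normalization, so the correlations are descriptions. In the naive brain Cd14 was nearest to Nlrp3 (Pearson's r 0.97), Nfkbia (0.96) and Trib1 (0.95), Tlr2 to Csf2ra (0.97), Slc15a3 (0.96) and Rbm47 (0.96), and Tlr7 to Ctsa (0.97), Capza2 (0.96) and Csf1r (0.95). Tlr13 was nearest to C5ar1, March1 and Ebi3 (each 0.97), and Myd88 to Klra2 (0.95), E2f2 (0.95) and Pira2 (0.94). In the blood the nearest genes of Cd14 were Fos (0.94), Ptgs2 (0.94) and Sgk1 (0.93), and those of Tlr2 were Cst3 (0.97), Tcn2 (0.96) and Dusp6 (0.95). Tlr7 was nearest to Hfe, Rasa4 and Abi3 (each 0.96), Tlr13 to Ftl1, Csf2ra and Csf2rb (each 0.98), and Myd88 to Gda (0.99), Fes (0.98) and Mcemp1 (0.98). No member had a neighbour that stood among its nearest 3 in both tissues, and by ranks (Spearman's rho) only Nlrp3, Ctsa and Gda stayed among the first 3.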

How the data were processed

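The natural log values the authors deposited are ln(1 + UMI count corrected for depth by SCTransform), made separately in each of 3 matrices. After the log was undone, 100% were whole numbers within 1e-06, and sums equalled the deposited corrected totals in 2653 of 2653 cells of the naive brain and 2924 of 2924 of the blood. Per the submitters' processing notes, Cell Ranger 3.1, Seurat 3.1.1 and mm10 were used. Arms, clusters, gates and raw totals came from the deposited annotation, of which 69 columns were not used. The members and gene lists were chosen with earlier results of these data known.

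All deposited cells were kept, and no doublet caller was run, since raw counts were not used. The brain with metastases was clustered by the Leiden method at resolution 1 (igraph 0.11.9, scanpy 1.11.5), on 20 neighbours over 30 principal components (scikit-learn 1.9.0) of 2000 variable genes, and a name needed at least 30 cells, at least 3 markers, a marker among the 10 leading genes or most of the list met, and no other list with more markers among those 10. Ratios used CP10k with a pseudocount of 0.1, genes at 0.5 CP10k or more on a side and at least 30 cells a side. Pathway genes past 2 fold were named, up to 4 a class by size, and the 3 nearest genes of each member. Mitochondrial, ribosomal, predicted, haemoglobin, immunoglobulin, T cell receptor and sex-linked marker genes were not named. The ratio formula was tested on simulated counts for microglia-like, classical monocyte-like and neutrophil-like cells of the naive brain. Counting intervals of ratios and comparisons across matrices were not part of that test. Protein sequences were not used here.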

Additional observations from a re-analysis of the deposited data

Results flagged for a closer look

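Cd14 and Tlr2 had opposite directions between the arms in the classical monocyte-like cells of the 2 tissues. The log2 ratio of the sample labelled depleted over the sample labelled control for Cd14 was -0.55 in brain and 0.73 in blood. For Tlr2 it was -0.40 in brain and 0.96 in blood. The difference between the tissues was not tested, since each ratio rests on 1 hashed sample per arm. The naive brains came from mice without metastases and the blood from mice with them, and 62.2% of the brain cells but 7.89% of the blood cells of this class had a barcode listed in more than 1 matrix. Without those barcodes the ratios for Cd14 were -0.88 and 1.45, and for Tlr2 -0.86 and 1.11. With the cell names of an earlier annotation the blood ratio of Cd14 was much smaller, as given above, and that of Tlr2 was little changed. Over all members, that annotation turned the sign of 8 of 14 blood arm ratios, and the surface gates of 7 of 14. These counts cover 3 blood classes and do not single out this contrast. The size of the blood Cd14 ratio depends on how the cells are classed, while both genes stayed above 0 with the earlier annotation.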

How the results depend on the processing

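No result turned from past 2 fold in one direction to past it in the other under any alternative that was run. In the naive brain, members at least 2-fold lower in the sample labelled depleted numbered 1, and 2 with the authors' surface gates, 2 without cells under 3000 raw UMIs and 0 without the 25% of cells lowest in hashtag counts. Without shared barcodes there was 1, Tlr13 in classical monocyte-like cells (-1.46). Neutrophil-like cells, 18 on each side, could not be compared. With no minimum level, 2 were at least 2-fold higher (0 with it) and 17 of 32 below 0 (10 of 14 with it). In the blood the count at least 2-fold higher was 0, and became 1 with gates, 2 without cells lowest in hashtags and 3 without shared barcodes, while 15 of 24 ratios were below 0 with no minimum level, against 7 of 14. For the brain with metastases over the naive brain, the 1 ratio past 2 fold became 0 at Leiden resolution 0.5, 2 at resolution 2 and 3 without shared barcodes, and ratios below 0 went from 3 to 5 at resolution 0.5, which gave no classical monocyte-like class. Over the blood, ratios at least 2-fold lower went from 0 to 1 at resolution 0.5 and without shared barcodes. For the naive brain over the blood, the 1 ratio at least 2-fold lower became 0 with a pseudocount of 0.5 and 2 with gates or without shared barcodes. The share of all genes past 2 fold was not counted under these alternatives, so these counts have no background beside them. The cause of the changes was not tested. The earlier blood annotation moved no count past 1.5 times but turned the sign of 8 of 14 ratios, as the surface gates did for 7 of 14 and leaving out shared barcodes for 4 of 19. No paired analysis was possible because each arm and tissue is 1 hashed sample. The number of samples and, for Tlr3, Tlr4 and Tlr9, the depth limit what can be said.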
